A study of Mus musculus with 2 samples.

Results

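Transcripts of 6 genes of extracellular matrix breakdown were followed in mouse liver endothelium and liver macrophages in control and cirrhotic animals. They were the secreted proteases Adamts1, Adamts5 and Adamts9, the membrane-anchored protease Mmp14, and the tissue inhibitors of metalloproteinases Timp2 and Timp3. The 6 were chosen by name from the 31057 rows of the deposited tables, and each has a row in both. All mice were C57BL/6 animals aged 16 weeks with the genotype Cdh5-Cre+, mTmG +/+, in which an endothelial promoter drives the recombinase that turns a cell and its descendants from membrane tdTomato to membrane GFP. The control group is labelled only as such, and in the cirrhosis group the liver had been damaged by inhaled carbon tetrachloride (CCl4), a hepatocyte toxin, over 12 weeks. Each group was 1 single-cell RNA library from GFP-positive live cells of 3 pooled mice. With 1 library per group there was no test between groups and no replicate check, and the 95% intervals given in brackets are exact and cover counting error only.

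The control library held 5642 barcodes with 45767322 UMIs, and the cirrhosis library 8327 barcodes with 77339928 UMIs, where a UMI is 1 counted transcript molecule. A total of 17 barcode sequences occurred in both libraries. Sinusoidal endothelial cells of the liver (LSECs), which line its capillaries and carry open pores, were found as 2744 control and 2714 cirrhosis cells, with medians of 6897 and 9637 UMIs per cell. They were divided into a pericentral class near the central vein (441 and 668 cells), an intermediate class (1710 and 1458) and a periportal class near the portal inflow (593 and 588). Central-vein endothelium had 97 and 281 cells, large-vessel endothelium 119 and 268, and the class resembling Kupffer cells, the macrophages that reside in the liver, 180 and 222. T or NK cell-like lymphocytes (227 and 242 cells, median 6385 and 5748 UMIs) served as a comparison class for these genes. They were not free of Timp2. All 6 genes and a wider list of 79 protease genes were kept out of the clustering.

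The labels held against the markers with limits. All 10 LSEC markers were above 20 CPM (counts scaled to a class total of 1000000 UMIs) in LSEC-like cells of both libraries, and their summed level was 23794 CPM in control and 15949 CPM in cirrhosis. The same sum was 14652 CPM in control and 4347 CPM in cirrhosis in the central-vein class, and 11203 and 5778 CPM in the large-vessel class, so the make-up of these small classes differed between the libraries. The reporter transcript eGFP was at 1711 and 1504 CPM in LSEC-like cells and at only 146 and 189 CPM in Kupffer cell-like cells. In Kupffer cell-like cells tdTomato was at 48.6 and 20.4 CPM against 0.54 and 0.60 CPM in LSEC-like cells. Different clusters also held most of the intermediate class, namely clusters 0, 6 and 7 in control and cluster 3 in cirrhosis.

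Metalloproteases cut the proteins and proteoglycans that fill the space between cells, and in the liver sinusoid they act on the thin matrix between endothelium and hepatocytes. ADAMTS1, ADAMTS5 and ADAMTS9 are secreted zinc proteases that cleave large chondroitin sulfate proteoglycans such as versican and aggrecan, and ADAMTS1 is also known as an inhibitor of angiogenesis. MMP14, or membrane-type 1 matrix metalloproteinase, cleaves fibrillar collagen at the cell surface and activates the gelatinase MMP2. TIMP2 inhibits matrix metalloproteinases and, bound to MMP14, takes part in that activation. TIMP3 stays bound to the matrix and inhibits ADAMTS5 and many other metalloproteases.

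Adamts1 and Adamts5 are neighbours on chromosome 16 of the mouse genome (GENCODE M21 on GRCm38), on the minus strand at 85793827 to 85803113 and 85856173 to 85901828. They lie 53.1 kb apart with 1 gene between them, which is not protein-coding. Adamts9 is on the minus strand of chromosome 6 (92772699 to 92943492) and Timp2 on the minus strand of chromosome 11 (118301069 to 118355740). Timp3 is on the plus strand of chromosome 10 (86300372 to 86349506) and lies inside Syn3, a gene of the opposite strand that was at 7.40 CPM in control and 3.35 CPM in cirrhosis LSEC-like cells. Mmp14 is on the plus strand of chromosome 14 (54431612 to 54445364). Timp2 overlaps Cep295nl on its own strand, and Adamts9 overlaps A730049H05Rik, Gm15737 and 9530026P05Rik on the other. The sources used here do not say how reads of overlapping genes were counted.

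The promoters of 5 of the 6 genes were matched in RefSeq (GRCm38.p6), all but that of Adamts5. The 250 bases before the start of Adamts1 and Mmp14 are shown, because these were the well-measured members with the lowest and the highest ratio of cirrhosis over control in LSEC-like cells. They are given 5′ to 3′ on the strand of the gene, and capitals mark 3 motifs. One is TGACG, the core of the cyclic AMP response element to which CREB proteins bind. Another is TATAAA, the TATA box at which the basal transcription machinery assembles. The last is CCACCC, a box that zinc finger proteins of the KLF family are known to bind. The stretches are chr16:85803114-85803363, minus strand, and chr14:54431348-54431597, plus strand.
Adamts1: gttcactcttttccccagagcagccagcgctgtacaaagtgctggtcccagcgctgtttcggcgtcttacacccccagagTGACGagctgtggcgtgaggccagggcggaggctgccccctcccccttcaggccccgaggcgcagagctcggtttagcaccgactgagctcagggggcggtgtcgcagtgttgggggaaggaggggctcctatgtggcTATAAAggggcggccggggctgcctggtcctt
Mmp14: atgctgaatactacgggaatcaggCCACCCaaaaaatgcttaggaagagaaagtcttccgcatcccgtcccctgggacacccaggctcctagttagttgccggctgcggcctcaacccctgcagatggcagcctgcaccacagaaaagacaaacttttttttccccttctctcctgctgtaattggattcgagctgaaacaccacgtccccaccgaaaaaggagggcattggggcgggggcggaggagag
In the Adamts1 stretch, TGACG lay 170 to 166 bases and TATAAA 32 to 27 bases before the start. In the Mmp14 stretch, CCACCC lay 226 to 221 bases before it. Both strands were searched for 6 motifs in the 5 promoters. Adamts1 was the only one of the 5 with TATAAA, which was present in 12.4% of 32851 mouse promoters of the same length. TGACG was present in Adamts1 and Adamts9 and in 17.8% of all promoters, and CCACCC in Timp2, Timp3 and Mmp14 and in 28.1%. The box GGGCGG was present in all 5 and in 32.7% of all promoters. None of the 5 held TGANTCA, the AP-1 site (6.75% of all promoters), or TGACGTCA, the full cyclic AMP response element that contains TGACG (1.55%). A match is a run of letters, not a tested binding site.

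In LSEC-like cells of the cirrhosis library, Adamts1 and Timp3 were lower than in control and Mmp14 was higher. Of the 6 genes, 4 had a mean of at least 20 CPM over both libraries in these cells, the level at which ratios were counted, and Adamts5 and Adamts9 fell under it. Of the 4, 1 was higher by 1.5-fold or more in cirrhosis (Mmp14), against 4.44% of all 6874 genes at that level. In the other direction 2 were lower by 1.5-fold or more (Adamts1 and Timp3), against 5.18% of all genes. The median log2 ratio of the 4 was -0.21, and that of all 6874 genes was -0.04. At 2-fold, 1 of the 4 was lower (Adamts1), against 1.6% of all genes, and 0 were higher, against 1.57%. The 4 are too few for their share to be read closely against the background.

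**Figure D1:**
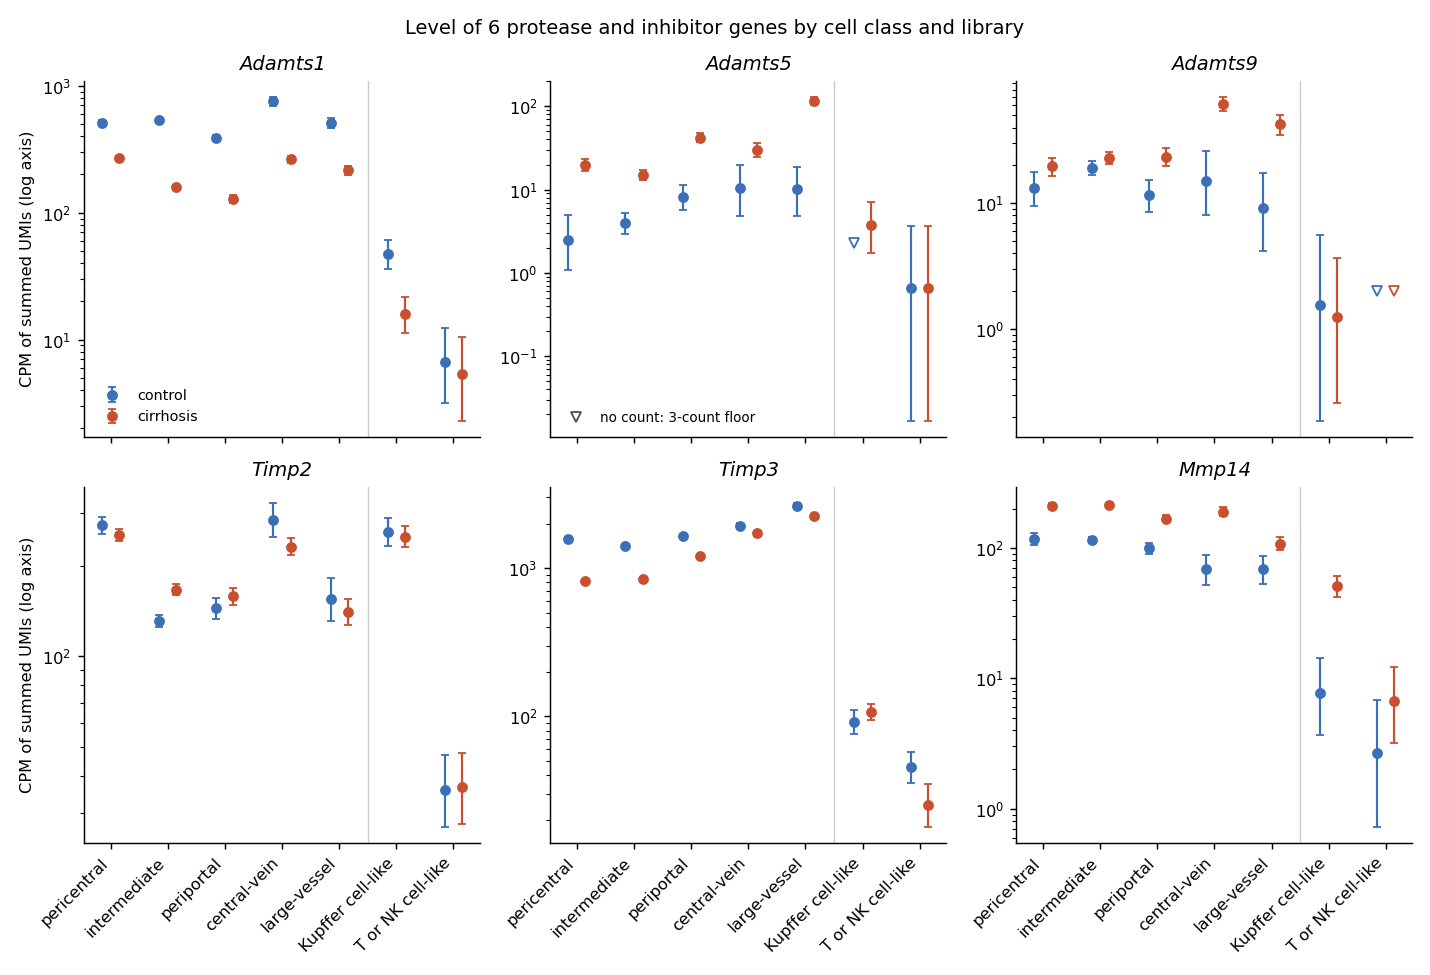
Level of each gene as CPM of the summed UMIs of a class (log axis) in control and cirrhosis, 1 point per class and library, with exact Poisson 95% bars; open triangles stand for classes with no count, drawn at the level of 3 counts. Adamts1 is lower and Mmp14 is higher in cirrhosis in all 5 endothelial classes, and the ADAMTS genes are low in Kupffer cell-like and T or NK cell-like cells.

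Adamts1 was at 501 CPM in control and 183 CPM in cirrhosis LSEC-like cells, a log2 ratio of -1.46 [-1.50, -1.41]. In control its level was 753 CPM in central-vein, 535 CPM in intermediate, 513 CPM in pericentral, 512 CPM in large-vessel and 388 CPM in periportal cells. In cirrhosis the levels were 264 CPM in central-vein, 159 CPM in intermediate, 269 CPM in pericentral, 215 CPM in large-vessel and 129 CPM in periportal cells. Each of these 5 classes lay lower in the cirrhosis library than any of them did in the control library. The log2 ratio was least low in the pericentral class (-0.93 [-1.02, -0.83]) and lowest in the intermediate class (-1.75 [-1.82, -1.68]). That order rested on the cell filter, since the pericentral ratio was -1.92 when 1000 UMIs and under 10% mitochondrial counts were asked. The intermediate ratio also lay below that of any single LSEC-like cluster of the second clustering step, as given below. The intervals of the intermediate, pericentral and large-vessel levels overlapped in control, and those of the pericentral and central-vein levels overlapped in cirrhosis. Kupffer cell-like cells had 47.1 and 15.8 CPM (log2 ratio -1.57, and -3.83 with predicted doublets kept), and the lymphocyte class had 6.66 and 5.32 CPM.

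The level of Adamts1 moved with that of immediate-early genes, which are induced within minutes by growth factors, stress or tissue dissociation. The summed level of 16 such genes was 16786 CPM in control and 4539 CPM in cirrhosis LSEC-like cells, and Fos was at 2184 and 212 CPM. The control LSEC-like cells fell mainly into a pair of clusters of the first clustering step. The 1548 cells of cluster 1 had an immediate-early sum of 21362 CPM and Adamts1 at 635 CPM, and the 1096 cells of cluster 2 had 6371 CPM and Adamts1 at 199 CPM. Set against cluster 2 alone, the log2 ratio of Adamts1 in all cirrhosis LSEC-like cells was -0.12 [-0.22, -0.03], and against cluster 1 alone it was -1.80 [-1.85, -1.75]. Cluster 2 was also shallower (median 5132 against 8010 UMIs) and higher in Gm42418, a transcript that carries ribosomal RNA sequence (3688 against 1560 CPM). The ratio also changed when the 214 control barcodes predicted as doublets were kept. In that setting 2524 control barcodes fell into a cluster named mixed, which was left out. Col1a2 and Dcn led it, and so did Gm26802, Cntfr, Fosb and Socs3, which were also among the leading genes of cluster 1. Its summed level of endothelial markers was 88.2% of that in the highest cluster. Adamts1 in the 875 control LSEC-like cells that remained was at 152 CPM, a log2 ratio of 0.15. The setting thus left out many control cells beyond the predicted doublets.

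**Figure D2:**
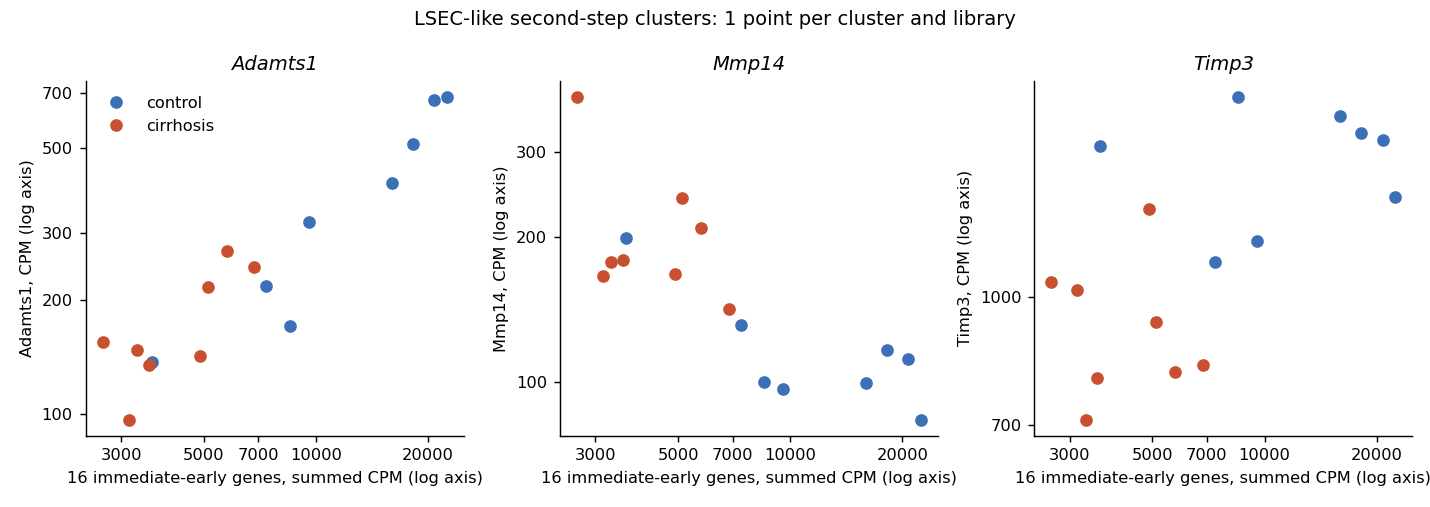
Level of Adamts1, Mmp14 and Timp3 (CPM, log axis) against the summed level of 16 immediate-early genes (CPM, log axis) in 8 LSEC-like clusters of the second clustering step, 1 point per cluster and library. Adamts1 is high in the clusters with a high immediate-early sum within each library, and Timp3 is lower in cirrhosis at like sums. Mmp14 is highest in the cluster with the lowest sum in each library.

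The second clustering step left immediate-early genes out and gave 8 LSEC-like clusters with at least 50 cells in both libraries. Across the 8 control clusters the immediate-early sum ranged from 3622 to 22422 CPM and Adamts1 from 137 to 682 CPM, with a Pearson correlation of 0.95 on the log2(CPM + 1) scale. Across the 8 cirrhosis clusters the sum ranged from 2678 to 6837 CPM and Adamts1 from 96.9 to 269 CPM, with a correlation of 0.77. The clusters of a library share its animals, its dissociation and its sequencing run, so these are descriptions with no p-value. Adamts1 was lower in cirrhosis in 7 of the 8 clusters. The exception was cluster 0, the control cluster with the lowest immediate-early sum, in which Adamts1 was at 137 CPM in control and 155 CPM in cirrhosis. The log2 ratios of the 8 clusters ranged from -1.63 to 0.18. With the clusters weighted equally the ratio was -1.15, beside -1.46 for all LSEC-like cells summed. The summed ratio of the intermediate class, -1.75, lay below all of them. Most control cells of that class lay in other clusters than most of its cirrhosis cells. Whether immediate-early induction contributed to the difference in Adamts1 between the libraries was not tested.

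Adamts5 was higher in cirrhosis in all endothelial classes, from a low control level. It was at 4.62 CPM in control and 22.5 CPM in cirrhosis LSEC-like cells, a log2 ratio of 2.29 [1.97, 2.61] from 95 and 599 UMIs. Its level was 2.51 and 19.9 CPM in pericentral, 3.96 and 15.0 CPM in intermediate and 8.27 and 42.1 CPM in periportal cells. The large-vessel class stood highest in cirrhosis, with 10.2 CPM in control (10 UMIs) and 115 CPM in cirrhosis (319 UMIs), a log2 ratio of 3.50 [2.60, 4.57]. Central-vein cells had 10.5 and 30.01 CPM. In cirrhosis the intervals of these 5 classes were separate from one another except for pericentral and intermediate. In control those of the central-vein and large-vessel classes, from 9 and 10 UMIs, overlapped each other and those of every LSEC zone. Only the periportal interval was separate from the pericentral and intermediate ones. Adamts5 was higher in cirrhosis in all 8 second-step LSEC-like clusters, by log2 1.17 to 2.98. Against control cluster 2 of the first step alone, the log2 ratio was 2.25 [1.69, 2.86].

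The share of cells with at least 1 Adamts5 UMI was also higher in cirrhosis at equal depth in large-vessel and LSEC-like cells. After each cell was thinned to 2000 UMIs, 18.9% of 265 cirrhosis large-vessel cells had one (exact Clopper-Pearson interval 14.3% to 24.1%), against 2.59% of 116 control cells (0.54% to 7.37%). Without thinning the shares were 45.1% and 7.56%, at median depths of 9999 and 7520 UMIs. In LSEC-like cells the thinned shares were 3.78% in cirrhosis and 0.87% in control, and the unthinned shares were 12.4% and 2.77%. The order of classes in control was not that of the CPM. No thinned control central-vein cell had one (0 of 96), though the CPM of that class was like that of large-vessel cells. No thinned T or NK cell-like cell of either library had one (0 of 222 in control, with an exact upper bound of 1.65%, and 0 of 236 in cirrhosis, upper bound 1.55%). The unthinned shares of that class were 0.44% and 0.41%.

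Adamts9 differed most in the vessels outside the sinusoid. In central-vein cells it was at 15.1 CPM in control and 61.5 CPM in cirrhosis (log2 ratio 2.03 [1.23, 2.96]), from 13 and 248 UMIs, and the ratio was 1.18 under the stricter cell filter. In large-vessel cells it was at 9.18 and 42.3 CPM (2.21 [1.23, 3.37]), from 9 and 117 UMIs. In the LSEC zones it was at 13.2 and 19.6 CPM in pericentral (0.57 [0.07, 1.10]), 19.2 and 22.9 CPM in intermediate (0.25 [0.01, 0.50]) and 11.6 and 23.4 CPM in periportal cells (1.02 [0.54, 1.52]). In control the intermediate level (16.9 to 21.7 CPM) lay above the periportal one (8.57 to 15.3 CPM), while the intervals of classes next to each other in the order of levels overlapped. With predicted doublets kept, the ratio was 1.01 in intermediate and 0.36 in periportal cells. In cirrhosis central-vein cells stood above large-vessel cells, and both stood above the 3 LSEC zones, whose intervals overlapped. Within the cirrhosis library the central-vein level was above the pericentral one by log2 1.65 [1.35, 1.96], and within the control library by 0.19 [-0.83, 1.12]. Because the central-vein and large-vessel classes held fewer LSEC marker transcripts in cirrhosis, a difference in their make-up and a difference per cell cannot be told apart.

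Mmp14 was higher in cirrhosis in each endothelial class and in Kupffer cell-like cells. In LSEC-like cells it was at 112 CPM in control and 200.5 CPM in cirrhosis (log2 ratio 0.84 [0.76, 0.91]). The zones had near ratios, with 117 and 209 CPM in pericentral (0.84), 116 and 211 CPM in intermediate (0.87) and 99.2 and 167 CPM in periportal cells (0.75). With predicted doublets kept these ratios were 0.054, 0.37 and 0.24, all under 1.5-fold. Central-vein cells had 68.5 and 190 CPM (1.47 [1.09, 1.88]) and large-vessel cells 68.3 and 107 CPM (0.65 [0.27, 1.06]). Large-vessel cells were the lowest of these 5 classes in cirrhosis, and the control intervals of central-vein and large-vessel cells overlapped. The large-vessel ratio was 0.31 under the stricter cell filter and 0.50 at a lower clustering resolution, both under 1.5-fold. At equal depth, 20.9% of control and 35.0% of cirrhosis LSEC-like cells had a Mmp14 UMI, against 52.0% and 80.0% without thinning. Among the thinned lymphocytes the shares were 0% of 222 and 0.42% of 236 cells.

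In control, Mmp14 was highest in the second-step cluster with the lowest immediate-early sum. That was cluster 0, with Mmp14 at 199 CPM and a sum of 3622 CPM, while the other control clusters had 83.3 to 131 CPM. Across the 8 control clusters the correlation of Mmp14 with the sum was -0.76, and across the 8 cirrhosis clusters it was -0.47. Cluster 0 of cirrhosis also had both the lowest sum and the highest Mmp14 level (391 CPM). Because this cluster stands apart in each library, neither correlation is read as a trend. Mmp14 in control was at 98.3 CPM in cluster 1 and 146 CPM in cluster 2 of the first step. Set against cluster 2 alone, the log2 ratio in cirrhosis was 0.46 [0.35, 0.56], which is under 1.5-fold, and against cluster 1 alone it was 1.03 [0.94, 1.11]. With predicted doublets kept it was 0.30. Mmp14 was higher in cirrhosis in all 8 second-step clusters, by log2 0.43 to 1.11. Kupffer cell-like cells also hold Mmp14, and the summed level of 11 macrophage markers in LSEC-like cells was 88.0 CPM in control and 233 CPM in cirrhosis. Their part in the result was not tested.

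Timp3 was lower in cirrhosis in the LSEC zones and, at the main settings, differed less in the larger vessels. It was at 1482 CPM in control and 917 CPM in cirrhosis LSEC-like cells, a log2 ratio of -0.69 [-0.72, -0.67]. Pericentral cells had 1573 and 812 CPM (-0.95 [-1.01, -0.90]), intermediate cells 1402 and 847 CPM (-0.73 [-0.76, -0.69]) and periportal cells 1658 and 1198 CPM (-0.47 [-0.52, -0.42]). Central-vein cells had 1932 and 1737 CPM (-0.15 [-0.23, -0.08]) and large-vessel cells 2633 and 2231 CPM (-0.24 [-0.31, -0.17]). Under the stricter cell filter the central-vein ratio was -0.45, near the -0.43 of periportal cells. That setting also changed the central-vein class, to 105 control and 468 cirrhosis cells in place of 97 and 281. With predicted doublets kept, the large-vessel ratio was -0.38. The zone ratios were ordered from pericentral to periportal, but with predicted doublets kept they were -0.70, -0.76 and -0.60, with the intermediate class lowest. Among these 5 classes large-vessel cells stood highest in both libraries, followed by central-vein and periportal cells. Within control the pericentral level was below the periportal one by log2 -0.08 [-0.13, -0.02], and within cirrhosis by -0.56 [-0.61, -0.51]. The control value turned to 0.21 at a lower clustering resolution, which changes the cells in each zone.

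Unlike Adamts1, Timp3 kept its ratio against either group of control cells. Its level was 1502 CPM in cluster 1 and 1407 CPM in cluster 2 of the first step, and the log2 ratio against cluster 2 alone was -0.62 [-0.65, -0.58]. Against that cluster it was the only one of the 4 well-measured members past 1.5-fold, against 6.86% of 6911 genes that were lower by as much and 5.04% that were higher. Against cluster 1, 3 of 5 members were past 1.5-fold (Adamts1, Timp3 and Mmp14), against 5.24% of 6848 genes lower and 4.31% higher. It was lower in cirrhosis in all 8 second-step clusters, by log2 -0.95 to -0.37, and ranged from 1102 to 1739 CPM in control and from 711 to 1274 CPM in cirrhosis. Its correlation with the immediate-early sum was 0.15 in control and -0.09 in cirrhosis. Timp3 was detected in 89.7% of control and 77.4% of cirrhosis LSEC-like cells at 2000 UMIs, and in 98.3% and 97.3% without thinning. Among lymphocytes the thinned shares were 4.5% and 5.51%. Markers of stellate cells, the pericytes of the sinusoid, summed to 115 CPM in control and 47.4 CPM in cirrhosis LSEC-like cells, and their part in the result was not tested.

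Timp2 differed less than 1.5-fold between the libraries in each endothelial class and in Kupffer cell-like cells, with an exception at a lower clustering resolution, where the periportal ratio was 0.61 (132 and 201 CPM). In LSEC-like cells it was at 156 CPM in control and 188 CPM in cirrhosis (log2 ratio 0.28 [0.21, 0.34]). The ratio was above 0 in intermediate cells, with 131 and 167 CPM (0.35 [0.26, 0.44]), and below 0 in central-vein cells, with 285 and 231 CPM (-0.30 [-0.50, -0.09]). In pericentral cells (272 and 253 CPM), periportal cells (144 and 158 CPM) and large-vessel cells (155 and 140 CPM) the interval of the ratio held 0. Timp2 was zoned in both libraries. The pericentral level was above the periportal one by log2 0.92 [0.77, 1.07] in control and 0.68 [0.56, 0.79] in cirrhosis. Pericentral and central-vein intervals overlapped in each library, and so did those of periportal and large-vessel cells. Across the second-step clusters it was higher in cirrhosis in 6 of 8, with log2 ratios from -0.12 to 1.27. Both periportal clusters were among the 6, with 154 and 205 CPM in cluster 8 and 19.3 and 46.5 CPM in cluster 1. Cluster 8 held 543 control and 398 cirrhosis cells, and cluster 1 held 50 and 190. The mix of clusters in the periportal class thus differed between the libraries, and its ratio does not show that Timp2 was unchanged there.

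**Figure D3:**
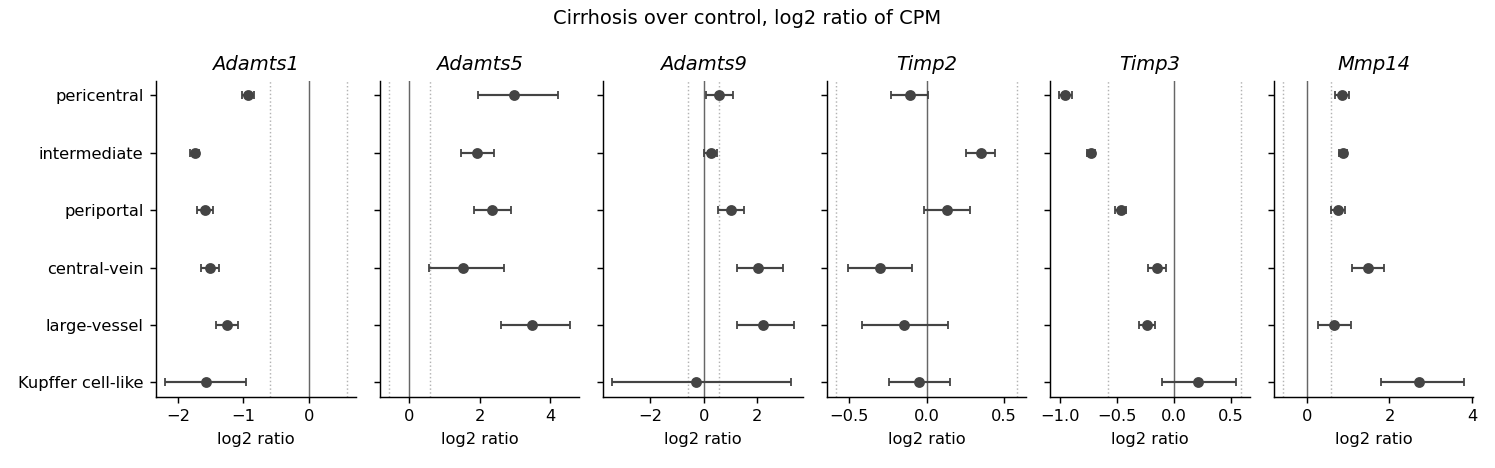
Log2 ratio of cirrhosis over control CPM for each gene (horizontal axis, own scale per gene) in 6 classes, with exact 95% bars; dotted lines mark 1.5-fold in each direction and the solid line marks no difference. Adamts1 lies left of 0 and Mmp14 right of 0 in all 6 classes, and Timp3 moves from -0.95 in pericentral to -0.15 in central-vein cells; Adamts5 in Kupffer cell-like cells is not drawn, as control had no count.

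The zonal order of the other members was read within each library. Adamts1 was higher in pericentral than in periportal cells by log2 0.40 [0.30, 0.50] in control and 1.06 [0.94, 1.18] in cirrhosis, and the immediate-early sum differed along with it. That sum was 18161 CPM in the pericentral cluster and 15974 CPM in the larger periportal cluster of control, and 5761 and 4893 CPM in cirrhosis. The larger Adamts1 ratio in cirrhosis did not hold in other settings. At a lower clustering resolution the ratios were 0.76 in control and 0.67 in cirrhosis. Under the stricter cell filter, pericentral and periportal levels were 600 and 307 CPM in control and 159 and 142 CPM in cirrhosis. Adamts5 was lower in pericentral than in periportal cells, with ratios of -1.72 [-3.04, -0.58] and -1.08 [-1.39, -0.78]. Mmp14 was slightly higher in pericentral cells (0.23 [0.03, 0.44] and 0.32 [0.21, 0.44]), a direction that turned to -0.20 in cirrhosis at a lower clustering resolution. For Adamts9 the interval held 0 in both libraries.

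Counts by class depend on which members reach a mean of 20 CPM. In both vessel classes Adamts5 and Adamts9 reached it only through their level in cirrhosis. Adamts5 did so in periportal cells too (8.27 and 42.1 CPM). The counts of these classes are therefore given as a description, and the classes are not ranked. In central-vein cells all 6 genes had that mean, of which 3 were higher and 1 was lower, beside 11.7% and 14.9% of 7004 genes. In large-vessel cells the counts were also 3 and 1 of 6, beside 6.37% and 8.69% of 6928 genes. In pericentral cells 1 was higher and 2 were lower of 4, beside 6.83% and 8.34% of 6896 genes, and in intermediate cells 1 and 2 of 5, beside 3.64% and 4.73% of 6871. In periportal cells 2 were higher and 1 was lower of 5, beside 4.39% and 4.87% of 6837 genes. Adamts5, Adamts9 and Mmp14 were the higher genes in both vessel classes, and Adamts1 was the lower one. Scaling by the median of ratios moved all ratios by 0.11 in central-vein cells and by less than 0.1 in each other class.

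Other genes of the pathway were read from a list of 79 proteases, inhibitors, activators and substrates that includes the 6. In LSEC-like cells 18 of them had a mean of 20 CPM, of which 3 were higher and 2 were lower by 1.5-fold or more, beside 4.44% and 5.18% of 6874 genes, and the median log2 ratio was 0.23. Without the 6 members, 2 of 14 were higher and 0 lower. Those were Adam15, a disintegrin metalloprotease of the cell surface, at 72.4 CPM in control and 175 CPM in cirrhosis (log2 ratio 1.28), and Adam19, another member of that family, at 28.4 and 51.9 CPM (0.87). Among the substrates, Nid1, which encodes the basement membrane protein nidogen, was at 321 and 420 CPM (0.39), and Hspg2, which encodes perlecan, at 755 and 715 CPM (-0.08). Cst3, the cysteine protease inhibitor cystatin C, was at 412 and 403 CPM (-0.03). Adamts4, which is under that mean and was named after its values were seen, was at 4.04 CPM in control (83 UMIs) and 31.9 CPM in cirrhosis (847 UMIs), a log2 ratio of 2.98 [2.65, 3.32].

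In large-vessel cells 19 of the 79 genes had a mean of 20 CPM, with 7 higher and 1 lower, beside 6.37% and 8.69% of 6928 genes. Adamts5 and Adamts9, which are among the higher genes, reached that mean only through cirrhosis, so the count is a description. Adamts4, which cleaves aggrecan and versican as Adamts5 does, had 1 UMI in control (1.02 CPM) and 131 UMIs in cirrhosis (47.4 CPM), a log2 ratio of 5.54 [3.03, 10.85], and it reached that mean only through cirrhosis. It was also higher in central-vein cells, from 3.48 to 46.1 CPM. Adam23, an ADAM without protease activity, was at 648 and 486 CPM (-0.42 [-0.55, -0.28]).

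Kupffer cell-like cells expressed Timp2 at a level like that of pericentral endothelium and differed between the libraries in Mmp14. Timp2 was at 259 CPM in control and 250.1 CPM in cirrhosis (log2 ratio -0.05 [-0.24, 0.15]), which was 166% and 133% of the level in LSEC-like cells of the same library. At 2000 UMIs, 37.7% of 122 control and 35.8% of 165 cirrhosis cells had a Timp2 UMI, against 6.31% and 5.93% of lymphocytes. Without thinning the shares were 61.1% and 58.1% against 17.6% and 19.0%. Lymphocytes held Timp2 at 36.0 CPM in control and 36.6 CPM in cirrhosis, 23.1% and 19.4% of the LSEC-like level, so they are no negative class for it. Mmp14 was at 7.72 CPM in control (10 UMIs) and 50.8 CPM in cirrhosis (122 UMIs), a log2 ratio of 2.72 [1.79, 3.81]. Of the 4 members with a mean of 20 CPM in this class, Mmp14 was higher and Adamts1 lower by 1.5-fold or more, beside 13.2% and 10.5% of 5937 genes. Each reached that mean only through the library in which it was high, so the count is no support for either.

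Endothelial transcripts were present in the Kupffer cell-like barcodes. A set of 6 endothelial genes (Kdr, Egfl7, Stab2, Clec4g, Oit3 and Gpr182) had a level there of 3.67% to 8.39% of that in LSEC-like cells in control and 7.40% to 12.5% in cirrhosis. Adamts1, at 9.40% and 8.65%, and Timp3, at 6.20% and 11.6%, were at or near those ranges, and their part of endothelial RNA was not separated. Mmp14 was at 6.87% in control, within the range of the 6 genes, and at 25.3% in cirrhosis, above it. That reading depends on the set. The endothelial marker Cdh5, outside it, was at 491 CPM in control and 315 CPM in cirrhosis, against 1011 and 1111 CPM in LSEC-like cells. Its share was above those of the 6 genes and of Mmp14 in both libraries. How much of the Mmp14 was endothelial RNA was not tested. Adamts5 had 0 UMIs in control and 9 in cirrhosis, and Adamts9 had 2 and 3.

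**Figure D4:**
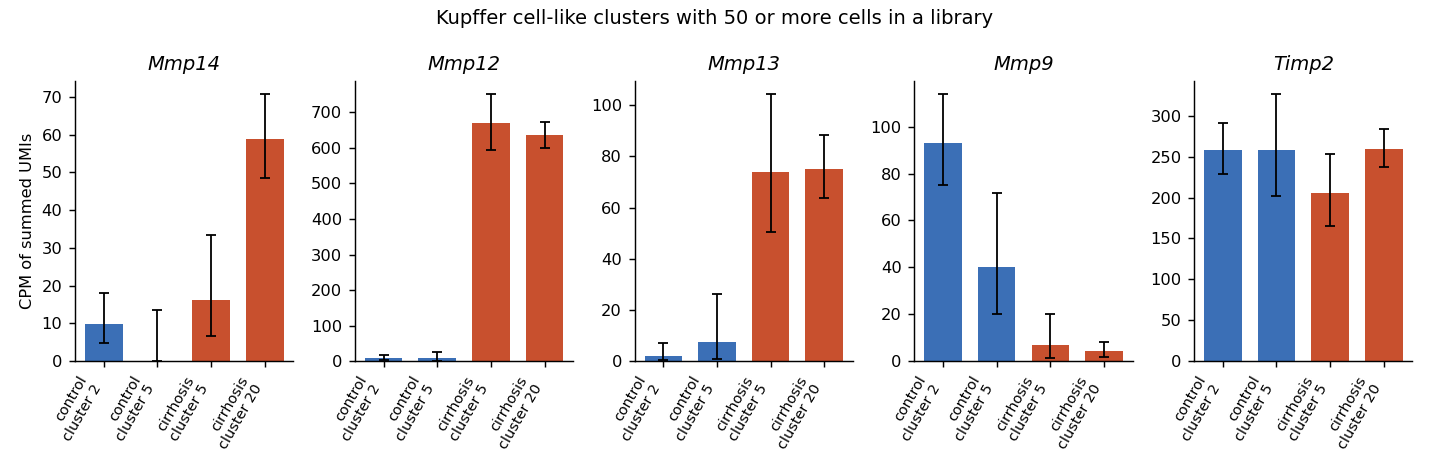
CPM of summed UMIs (bars, axes start at 0) with exact Poisson 95% bars for 5 genes in the Kupffer cell-like clusters that hold at least 50 cells in a library. Mmp12 and Mmp13 are high in both cirrhosis clusters and Mmp9 is high in the control clusters; Mmp14 is highest in cirrhosis cluster 20, and Timp2 lies between 205 and 260.0 CPM in all 4.

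The Kupffer cell-like classes were made of different clusters. In control 73 cells were in cluster 2 and 107 in cluster 5, and in cirrhosis 140 were in cluster 5 and 81 in cluster 20, with 1 cell in cluster 2. Mmp14 was at 58.9 CPM in cluster 20 (115 UMIs) and at 16.2 CPM in the cirrhosis cells of cluster 5 (7 UMIs), and control had 9.80 CPM in cluster 2 (10 UMIs) and 0 UMIs in cluster 5. The 3 counts that a count of 0 allows correspond to 10.9 CPM, and no ratio is given within cluster 5 from 7 and 0 UMIs. Timp2 in cluster 5 was at 259 CPM in control and 205 CPM in cirrhosis (log2 ratio -0.33 [-0.80, 0.14]).

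Other proteases of the list differed more in these cells. Mmp12, the macrophage elastase, was at 8.49 CPM in control and 638 CPM in cirrhosis (log2 ratio 6.23 [5.39, 7.24]), and within cluster 5 it was at 7.29 and 669 CPM (6.52 [4.66, 9.57]). Mmp13, an interstitial collagenase, was at 3.09 and 74.5 CPM (4.59 [3.21, 6.48]), and within cluster 5 at 7.29 and 73.9 CPM (3.34 [1.37, 6.45]). Mmp9, a gelatinase, was at 81.9 and 4.58 CPM (-4.16 [-5.21, -3.26]), and within cluster 5 at 40.1 and 6.92 CPM (-2.53 [-5.01, -0.61]). In all, 6 of 20 list genes with a mean of 20 CPM were higher and 2 lower in this class, beside 13.2% and 10.5% of all 5937 genes. Mmp12, Mmp13 and Mmp14 reached that mean only through cirrhosis, and Mmp9 and Adamts1 only through control. The count is therefore a description and no support for a difference.

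Some classes had enough cells only in the cirrhosis library. In 57 lymphatic endothelial cells, Timp2 was at 984 CPM, Timp3 at 3242 CPM and Adamts1 at 750.0 CPM, each above every other endothelial class of that library. Their immediate-early sum was 19151 CPM, also above the others. In 106 cholangiocyte-like cells, which line the bile ducts, Adamts9 was at 71.8 CPM, Timp2 at 207 CPM and Timp3 at 474 CPM. An unnamed cluster of 170 cells led by Chil3 and F13a1 had Mmp14 at 83.5 CPM and Timp2 at 251 CPM, and an unnamed cluster of 165 cells led by Gpnmb and Trem2 had 25.1 and 223 CPM. In 521 hepatocyte-like cells the levels of the 6 genes ranged from 0.38 CPM for Adamts9 to 40.7 CPM for Timp3.

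The genes most like each member were those with the highest Pearson correlation of log2(CPM + 1) over 14 points, 7 classes in each library, among 9262 genes. They were Midn, Ddx3x and Klf9 for Adamts1 (0.98 to 0.99), Kctd10, Slc35e4 and Ctnnb1 for Adamts5 (0.95 to 0.96), and Atxn1l, Plscr3 and Rab6a for Adamts9 (all 0.98). For Timp2 they were Ptgs1, Dram2 and Zdhhc14 (0.95 to 0.97), for Timp3 Cavin2, Sorbs3 and Ece1 (all 0.99) and for Mmp14 Coro1c, Loxl2 and Gng12 (all 0.98). The points share libraries and the contrast between endothelial and other cells. Among the members, Adamts1 and Timp3 were most alike (0.95), and Adamts5 and Timp2 were least alike (0.33).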

How the data were processed

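The members and gene lists were chosen with earlier results of these data known. Cells came from collagenase-perfused livers, per the labels' protocols, and after hepatocytes were spun out the live GFP-positive cells were sorted and run with 10x Genomics 3' v3 reagents. The deposited values are raw UMI counts per gene and barcode, made by the authors and not normalized. Cell Ranger and mm10 are named in the submitters' processing notes, and neither version nor annotation is given in the sources used here.

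Barcodes needed 500 UMIs, 300 genes, under 20% mitochondrial and at most 5% erythroid counts, which removed 475 control and 666 cirrhosis barcodes. Predicted doublets were removed at 0.8% per 1000 barcodes (214 and 470), a number set by loading, which left 4953 and 7191. Clustering (scanpy 1.11.5, Leiden, 2000 variable genes, 30 components, resolution 0.5) pooled both libraries. Non-endothelial barcodes were clustered again at 0.8. Endothelial ones were clustered again at 1.0, each library scaled on its own, without immediate-early genes and without barcodes over 0.5% of other cells' markers. Names came from marker lists, and the thresholds were set after the data were seen. They left 30.1% of the control barcodes and 37.0% of the cirrhosis barcodes outside the named classes. These were barcodes of unnamed or mixed clusters and barcodes set aside for transcripts of other cells.

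UMIs were summed per class and library and given as CPM. Ratios have exact conditional intervals, levels Poisson ones and shares Clopper-Pearson ones, at 95%. Counts of ratios used a mean of 20 CPM and 1.5-fold. Of the 79-gene list, the text names the 4 highest and 4 lowest in LSEC-like cells and 2 each in large-vessel and Kupffer cell-like cells. On counts simulated for LSEC-like cells over 6874 genes, the ratio's interval held the true value for 95.3% of 6674 unchanged genes, 96% of 100 genes at log2 1 and 95% of 100 at log2 -2. Alternatives were scaling, cell filter, doublets, resolution, zone weights, control clusters, genes in the clustering, depth, fold and CPM minimum. Added after seeing the data were equal cluster weights, Kupffer cell-like cluster 5 alone and the member count against single control clusters.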

Additional observations from a re-analysis of the deposited data

Results flagged for a closer look

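The ratio of Timp2, an inhibitor of matrix metalloproteases, had opposite signs in 2 classes of the same contrast. It was 0.35 on the log2 scale in intermediate LSEC-like cells, with 131 CPM in control and 167 CPM in cirrhosis, and -0.30 in central-vein cells, with 285 and 231 CPM. The interval of neither ratio held 0. The difference between the classes was not tested, since each rests on 1 library per group. The sum of 10 LSEC markers in central-vein cells was 14652 CPM in control and 4347 CPM in cirrhosis, and its part in the result was not tested.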

How the results depend on the processing

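No paired analysis was possible because each group had 1 library. With predicted doublets kept, the log2 ratio of Adamts1 turned to 0.15 in LSEC-like, 0.61 in pericentral and 0.086 in intermediate cells, and that of Adamts9 to -0.18 in pericentral cells. That setting left 875 control LSEC-like cells in place of 2744, since a cluster of 2524 control barcodes was named mixed and left out. At a lower clustering resolution the pericentral over periportal ratio turned to 0.21 for Timp3 in control and to -0.20 for Mmp14 in cirrhosis. The number of members past 1.5-fold in LSEC-like cells was 3 of 4. It was 1 at 2-fold and 1 against control cells of first-step cluster 2 alone, and 3 of 5 against those of cluster 1. Of the 79-gene list, 5 of 18 genes were past 1.5-fold, beside 4.44% of 6874 genes higher and 5.18% lower. The count was 2 at 2-fold, beside 1.57% higher and 1.6% lower. It was 28 of 63 when only counts in both libraries were asked, and 4 of 13 at a mean of 50 CPM. No share over all genes is given for those last settings, so their counts are not read as a result. The 63 genes had no CPM minimum. No other ratio whose interval left out 0 changed sign under the alternatives run. In Kupffer cell-like cells the ratio of Timp3, 0.21 with an interval that held 0, was -1.57 with doublets kept, -0.44 at the lower resolution and -0.13 in cluster 5 alone. With doublets kept the ratio of Mmp14 in LSEC-like cells was 0.30 and that of Adamts1 in periportal cells -0.42. Under the stricter cell filter the ratio of Adamts5 in pericentral cells was 1.73 and that of Mmp14 in Kupffer cell-like cells 1.80. The cause of these shifts was not tested. With 13 or fewer control UMIs, the ratios of Adamts5 and Adamts9 in the vessel classes and of Mmp14 in Kupffer cell-like cells are limited by depth.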
